A study of Mus musculus with 2 samples.

Results

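The genes described are 10 that encode the elastic fibre and the proteins that assemble it: Eln, Fbn1, Fbn2, Fbln5, Efemp2, Lox, Loxl1, Mfap2, Mfap4 and Emilin1. They were taken as a named list, by gene symbol, and are 10 of 43346 gene rows, of which 21474 code for protein. All 10 had a row in both libraries. The tissue was whole lung of healthy mouse embryos of strain B6NCrl on embryonic day 16.5, with no treatment or altered allele stated. Both libraries are biological replicates of that 1 group, and embryos of both sexes were pooled for each. The pool of replicate 2 held 41 embryos, and no number is stated for replicate 1. Levels are TPM, the share of a library's transcripts after division by gene length, given as mean ± SD over the replicates (n = 2). The data give levels and their spread. They hold no second condition, so no difference was tested.

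Elastic fibres give the lung its recoil. Their core is tropoelastin, the product of Eln, which is secreted, gathers on a scaffold of fibrillin microfibrils and is crosslinked through its lysines by copper-dependent lysyl oxidases. Fibulins bring tropoelastin, microfibrils and lysyl oxidases together. In the lung, smooth muscle of airways and vessels lays down elastin before birth, and myofibroblasts of the septa do so as the alveoli form.

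The feature of Eln that the crosslinking enzymes act on can be read in its coding sequence. Lysines in the crosslinking domains often follow a run of alanines, and the motifs GCNGCNAAG and GCNGCNAAA encode alanine, alanine and lysine. Read in frame on the coding strand, these motifs occurred 21 times in Eln, in 10 of its 37 exons. The other 9 genes held 0 copies. Of 21526 genes with a coding sequence, 2497 (11.6%) held at least 1 copy, and Eln ranked 2 behind Neb, with 22. The 3 exons with the most copies, 3 each, are shown because they carry the densest groups of lysine codons of this kind. Sequences are from the GENCODE M21 transcript Eln-201 on GRCm38, minus strand of chromosome 5, with the motif copies in capitals. Exon 18 lies at chr5:134718989-134719048, exon 20 at chr5:134716992-134717045 and exon 26 at chr5:134712406-134712465.
Eln exon 18: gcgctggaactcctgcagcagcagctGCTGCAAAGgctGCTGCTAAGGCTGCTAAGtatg
Eln exon 20: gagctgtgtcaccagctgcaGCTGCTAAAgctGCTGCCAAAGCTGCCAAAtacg
Eln exon 26: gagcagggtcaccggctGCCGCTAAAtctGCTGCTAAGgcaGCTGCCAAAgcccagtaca

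Codon make-up differed among the 10 genes. Of 861 codons of Eln, the stop included, 36.2% encode glycine, 21.02% alanine, 10.9% proline and 8.59% valine, together 76.8%. The same 4 residues took between 22.7% of codons in Fbln5 and 35.5% in Loxl1 among the other 9 genes. Cysteine codons, which serve the disulphide-bonded domains of microfibril proteins, were 12.6% in Fbn1, 12.5% in Fbn2, 9.23% in Efemp2, 8.91% in Fbln5 and 7.53% in Mfap2. They were 2.91% in Lox, 2.33% in Mfap4, 2.26% in Emilin1, 1.97% in Loxl1 and 0.232% in Eln.

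Mfap2 and Efemp2 each have start sites whose transcripts differed widely in level, so the 150 bases before a major and a minor start are shown. A further RefSeq start of Efemp2 lies just downstream of the major one, has the same transcripts near it and is not shown. They are from RefSeq on GRCm38.p6, plus strand, and capitals mark the GC box GGGCGG or its reverse complement CCGCCC, overlapping copies included. In Mfap2 the start behind chr4:141010531-141010680 had transcripts starting within 100 bases of it that held 99.7% of the gene's TPM in replicate 1 and 99.6% in replicate 2. Those at the start behind chr4:141010274-141010423 held 0.33% in replicate 1 and 0.44% in replicate 2. In Efemp2 the start behind chr19:5474540-5474689 had 92.8% in replicate 1 and 93.4% in replicate 2, and the one behind chr19:5473796-5473945 had 1.71% and 2.55%. In both genes the window before the major start held more GC boxes, 2 against 0 in Mfap2 and 5 against 2 in Efemp2. These windows are set by the RefSeq start. Mfap2-201 itself starts at chr4:141010644, inside the major window, so the GC box nearest the window's end lies within that transcript. Of all 32817 such windows, 28.6% held a GC box. The motif CCAAT, also searched on both strands, went the other way in Mfap2. It was in the minor window and not in the major one, and in neither Efemp2 window shown, against 24.5% of all windows. GC content was 78.7% at the major and 49.3% at the minor start of Mfap2, and 86.0% at the major and 67.3% at the minor start of Efemp2, against a median of 54% over all windows. A match is a description of these letters only.
Mfap2 major start: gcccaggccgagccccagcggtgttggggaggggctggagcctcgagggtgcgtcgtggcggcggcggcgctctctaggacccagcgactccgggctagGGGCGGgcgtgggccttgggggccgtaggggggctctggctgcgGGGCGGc
Mfap2 minor start: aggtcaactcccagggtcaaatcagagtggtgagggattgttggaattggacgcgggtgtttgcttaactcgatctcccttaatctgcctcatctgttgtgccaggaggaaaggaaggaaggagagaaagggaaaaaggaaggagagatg
Efemp2 major start: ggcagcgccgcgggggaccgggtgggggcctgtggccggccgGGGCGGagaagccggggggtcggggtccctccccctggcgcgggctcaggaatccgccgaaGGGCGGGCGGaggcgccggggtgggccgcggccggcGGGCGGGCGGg
Efemp2 minor start: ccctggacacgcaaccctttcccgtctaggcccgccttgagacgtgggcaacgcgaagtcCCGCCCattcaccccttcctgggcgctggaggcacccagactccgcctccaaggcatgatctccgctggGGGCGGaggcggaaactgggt

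All 10 elastic fibre genes were expressed. They stood at 10 TPM or more in both replicates, a level reached by 40.3% of genes coding for protein, and 6 of 10 were at 100 TPM or more, reached by 7.06%. Their median TPM was 175 in replicate 1 and 179 in replicate 2 (177 ± 2.39), against 4.71 and 5.02 TPM over all genes coding for protein. Over the 13469 of those genes averaging 1 TPM or more, the median was 18.5 TPM in replicate 1 and 18.3 in replicate 2. Together their TPM came to 2966 in replicate 1 and 3002 in replicate 2, and to 0.445% and 0.452% of expected counts (estimated reads per gene). In bulk tissue, fewer cells of a type and less RNA per cell cannot be told apart. Replicate 1 held 38852470 expected counts and replicate 2 held 27145411, so a gene of 2 kb with 0 counts could reach 0.0604 and 0.0852 TPM, a limit of 3 counts for counting error only.

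**Figure D1:**
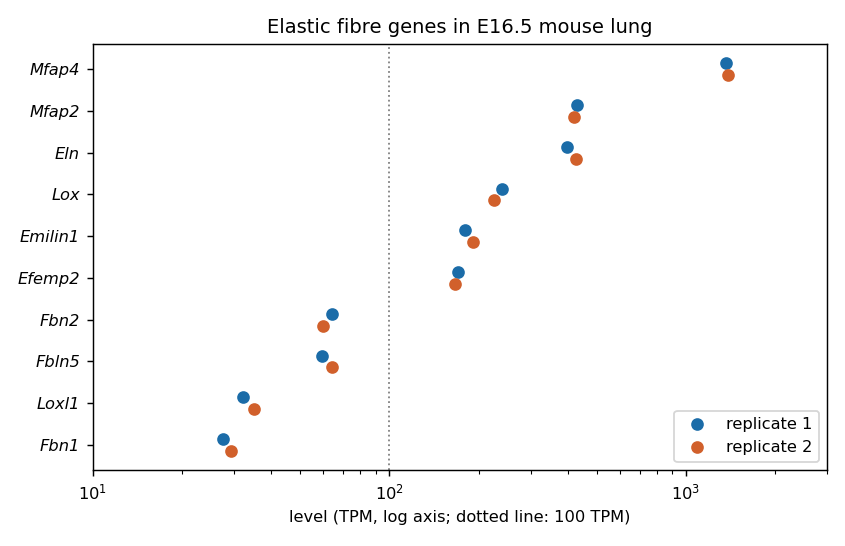
Level of each of the 10 elastic fibre genes in TPM on a log axis, with 1 point per replicate. Mfap4 stands alone at 1365 and 1386 TPM, and Fbn1 is lowest at 27.5 and 29.4 TPM.

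Eln, which encodes the elastin core, lies on chromosome 5 (134702593 to 134747323, minus strand, mm10). Its TPM was 398 in replicate 1 and 426 in replicate 2 (412 ± 19.9), from 25820 and 19603 expected counts. This placed it at rank 291 among the 21474 genes coding for protein. The files list a single transcript of 2583 nt for it, equal to its coding sequence with the stop codon, while the GENCODE M21 transcript Eln-201 has 3853 nt, so its level rests on the coding length.

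The microfibril genes spanned the whole range of levels. Mfap4 (chromosome 11, 61485431 to 61488900, plus strand, mm10), whose product carries a fibrinogen-related domain and binds elastic fibres, was the highest at 1365 TPM in replicate 1 and 1386 in replicate 2 (1376 ± 15.1), rank 46. The opposite-strand gene Mapk7 covers 89 bases of its leading transcript, and without a stated strand setting their reads there cannot be told apart. Mfap4 alone made up 46.0% and 46.2% of the TPM of the 10 genes. Mfap2 (chromosome 4, 141010418 to 141015984, plus strand), which encodes the microfibril-associated glycoprotein MAGP1, followed at 429 and 418.0 TPM (423 ± 7.54). The fibrillins, the backbone of the microfibril, were far lower. Fbn2 (chromosome 18, 58008623 to 58210487, minus strand), the fibrillin known for its prominence in development, had 64.2 TPM in replicate 1 and 59.8 in replicate 2 (62.0 ± 3.15). Fbn1 (chromosome 2, 125300594 to 125507993, minus strand) had 27.5 and 29.4 TPM (28.4 ± 1.31), the lowest of the 10. The log2 ratio of Fbn1 to Fbn2 was -1.12 ± 0.14, so Fbn2 stood 2.18-fold higher per length. The length used for Fbn2 was 10480 nt, against 11041 nt for Fbn2-201 in GENCODE M21. Fbn1 and Fbn2 are long, and they took 4.03% and 10.1% of the 10 genes' expected counts in replicate 1, against 0.928% and 2.17% of their TPM.

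The genes that organise and crosslink elastin differed among themselves. Efemp2 (chromosome 19, 5473954 to 5482517, plus strand, mm10), which encodes fibulin-4 and helps lysyl oxidase meet tropoelastin, had 171 TPM in replicate 1 and 167 in replicate 2 (169 ± 2.95). Fbln5 (chromosome 12, 101746565 to 101819055, minus strand), which encodes fibulin-5 and tethers tropoelastin to microfibrils, had 59.5 and 64.3 TPM (61.9 ± 3.37). Their log2 ratio, Fbln5 over Efemp2, was -1.45 ± 0.10, but from expected counts without division by length it was 0.59, and the gene model of Fbln5 has 5829 nt against 1496 nt for Efemp2 in replicate 1. Lox (chromosome 18, 52516067 to 52529867, minus strand), the lysyl oxidase that starts the crosslinks, had 240.5 TPM in replicate 1 and 226 in replicate 2 (233 ± 10.4). Loxl1 (chromosome 9, 58287738 to 58313186, minus strand), the family member tied to elastin upkeep in mice, had 32.0 and 35.1 TPM (33.6 ± 2.18). Lox therefore stood 6.95-fold above Loxl1, with a log2 ratio of Loxl1 to Lox of -2.80 ± 0.16. Emilin1 (chromosome 5, 30913402 to 30921277, plus strand), which encodes a glycoprotein at the border of elastin and microfibrils, had 179.9 and 191 TPM (185 ± 7.72).

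Most steps in the order of levels exceeded the spread between the replicates. The order by mean TPM was Mfap4, Mfap2, Eln, Lox, Emilin1, Efemp2, Fbn2, Fbln5, Loxl1 and Fbn1. Of 9 neighbouring pairs, 7 did not overlap between replicates. Among these 7, the step from Emilin1 to Efemp2 was small beside its spread, with a log2 ratio of 0.136 ± 0.085, less than 2 SD. Mfap2 with Eln and Fbn2 with Fbln5 changed places between the replicates and were not separated. By expected counts, which grow with length, Eln ranked 2, Lox 3 and Fbn2 4, and Mfap2 ranked 6.

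Ratios within a library, which cancel its scaling, set these genes beside each other and their relatives. All 14 pairs examined kept their sign, meaning that both replicates had it and that the mean log2 ratio exceeded 2 SD. From expected counts without division by length, 11 of the 14 kept the sign they had in TPM, 1 (Fbln5 to Efemp2) took the opposite sign, and 2 (Eln to Lox and Fbln5 to Fbln1) no longer met the rule. Per length, Eln exceeded Fbn1 by 14.5-fold (log2 3.86 ± 0.00) and Fbn2 by 6.64-fold (2.73 ± 0.14). From undivided counts these were 3.75-fold and 1.59-fold. The gene model of Eln lacks 1270 nt of the annotated transcript, and that of Fbn2 lacks 561 nt. Eln stood 1.77-fold above Lox per length (0.82 ± 0.13), but the log2 ratio of their expected counts was 0.07. Mfap4 stood 3.34-fold above Eln (1.74 ± 0.05) and 3.25-fold above Mfap2 (1.70 ± 0.04) per length, and 2.08-fold and 5.17-fold above them in undivided counts.

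In 4 of the 6 pairs with a relative outside the 10 genes, the relative was lower. Mfap2 exceeded Mfap5, which encodes the related glycoprotein MAGP2, by 17.7-fold (4.14 ± 0.20). Emilin1 exceeded Emilin2 by 36.5-fold per length (5.19 ± 0.22) and by 24.5-fold in undivided counts. Part of Emilin1's TPM rests on a short transcript described below. Lox exceeded Loxl2 by 7.53-fold (2.91 ± 0.04). Fbln5 exceeded Efemp1, which encodes fibulin-3, by 3.12-fold per length (1.64 ± 0.04) and by 10.4-fold in undivided counts. In the other 2 pairs Fbln1 stood above Fbln5 (log2 Fbln5 to Fbln1 of -1.61 ± 0.18) and Ltbp4 above Fbn1 (Fbn1 to Ltbp4 of -1.77 ± 0.10). From undivided counts these log2 ratios were -0.36 and -0.29.

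**Figure D2:**
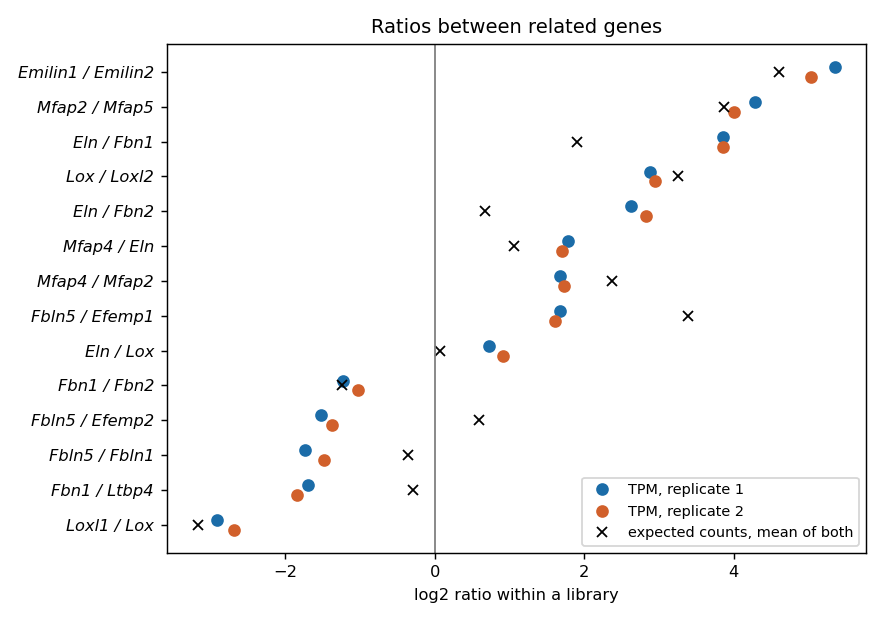
Log2 ratio of TPM for 14 pairs of related genes, with 1 point per replicate. Emilin1 to Emilin2 is highest at a mean of 5.19, and Loxl1 to Lox is lowest at -2.80.

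The leading transcript of each gene was the same in both replicates. Eln, Fbn2, Fbln5 and Loxl1 have a single transcript row each, and the other 6 genes kept the same leading transcript. Its share of the gene's TPM was 99.0% ± 0.198 for Mfap2-201, 97.9% ± 1.56 for Fbn1-201, 88.6% ± 0.120 for Mfap4-202 and 87.5% ± 0.148 for Efemp2-204. Lox was divided between Lox-202 of 4468 nt, at 76.9% ± 0.523, and Lox-201 of 3604 nt, at 22.7% in replicate 1 and 23.5% in replicate 2.

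Emilin1's level rested in part on a short transcript. Emilin1-201 took 64.5% of its TPM in replicate 1 and 58.8% in replicate 2, yet 91.5% and 89.7% of its expected counts. A transcript of 601 nt took 32.5% and 38.1% of the TPM from 768 and 676 expected counts. Its identifier, like those of 3 of the 4 Emilin1 transcripts in all, has no match in GENCODE M21, so its annotation is not given here. Emilin1-201 alone had 116 TPM in replicate 1 and 112 in replicate 2 (114 ± 2.69). It was thus lower in replicate 2, while the gene's summed TPM was higher there.

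**Figure D3:**
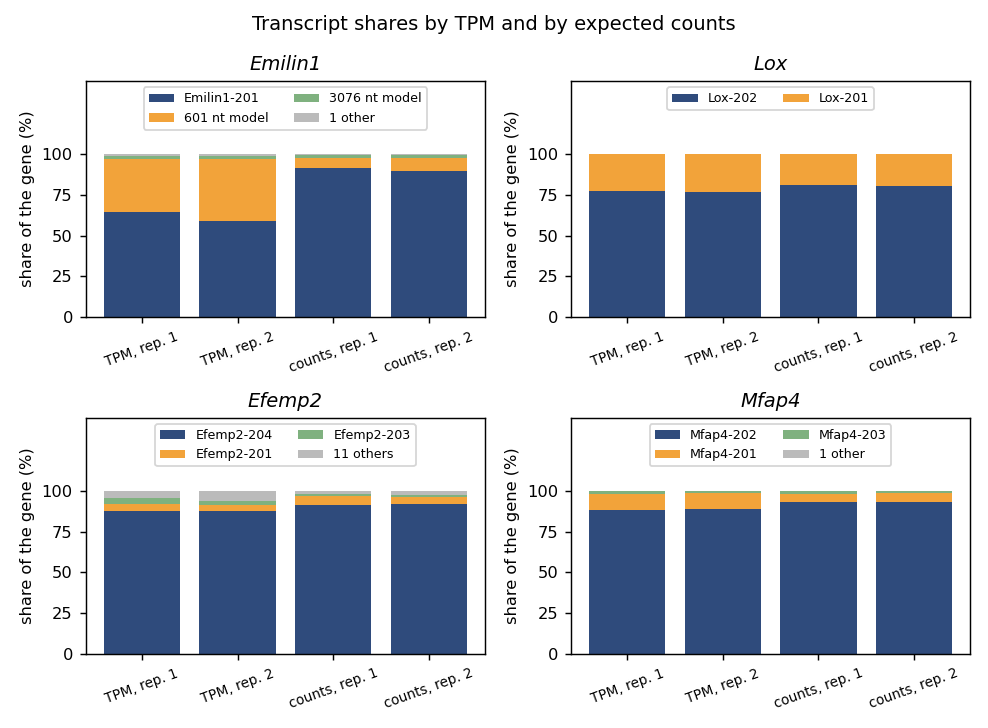
Shares of the TPM and of the expected counts of Emilin1, Lox, Efemp2 and Mfap4, in percent, held by their transcripts in each replicate. The leading transcript holds 88.6% of the TPM in Mfap4 and 61.6% in Emilin1 on average.

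The replicates differed little in these genes. On the log2(TPM + 1) scale, which understates differences of low genes, replicate 2 minus replicate 1 ran from -0.10 in Fbn2 to 0.13 in Loxl1, with 6 genes higher in replicate 2 and 4 lower. None of the 10 genes differed 1.5-fold or more, against 6.03% of the 15493 genes averaging 1 TPM or more. The median size of the difference was 0.09 for the 10 genes and 0.107 over all genes. Genes between 10 and 100 TPM had a median size of 0.0882, and those between 100 and 1000 TPM 0.0680. The coefficient of variation ran from 1.10% in Mfap4 to 6.49% in Loxl1. Counting error alone was 0.426% to 2.18%. The authors' deposited interval bounds narrow as counts rise. They did not overlap between the replicates for 5 of the 10 genes, Eln, Fbn2, Fbln5, Lox and Loxl1, against 21% of 9255 genes averaging 10 TPM or more. The TPM itself lay above its upper bound in 6 of the 10 genes in replicate 1 and in 7 in replicate 2. These bounds therefore do not always bracket the levels given. Scaled to equal spike-in totals, the small differences of Efemp2 and Mfap2 turned positive, at 0.00290 and 0.00222, so 8 of 10 genes were then higher in replicate 2.

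**Figure D4:**
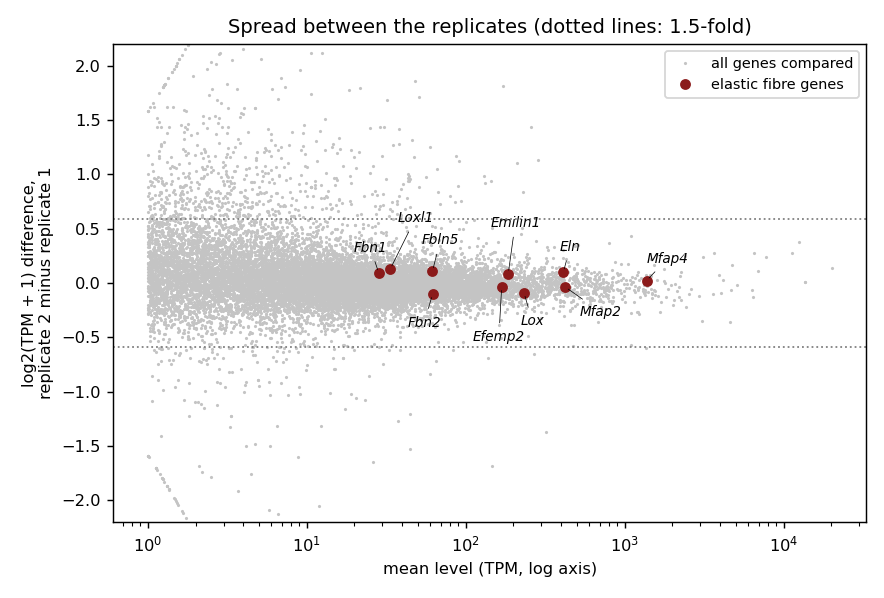
Log2(TPM + 1) difference, replicate 2 minus replicate 1, against mean TPM on a log axis, for the 15493 genes averaging 1 TPM or more, with the 10 elastic fibre genes marked. The marked genes lie between -0.10 and 0.13, and 112 genes beyond a difference of 2.2 in size are not drawn.

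Marker genes of the cells and organs that a lung dissection can hold were present in both libraries, and none of 47 was at 0. All 6 smooth muscle markers were at 10 TPM or more in both, with a summed level of 966 TPM (replicate 1) and 895 TPM (replicate 2). All 6 mesenchyme markers were too, at 565 and 561 TPM, as were all 5 epithelial markers, at 11713 and 15022 TPM. Sftpc, for surfactant protein C, made up 10883 and 14172 TPM of the epithelial sums, and the median of the 5 epithelial markers was 250.02 and 249 TPM. Acta2 made up 657 and 590 TPM of the smooth muscle sums, and the median of that list was 68.0 and 70.8 TPM. Tcf21 made up 322 and 331 TPM of the mesenchyme sums, and the median of that list was 55.5 and 48.9 TPM. Summed levels of liver, skeletal muscle and thymus markers differed more between the pools than those of the other lists. Liver markers, 3 of 4 at 10 TPM or more, summed to 47.1 TPM (replicate 1) and 399 TPM (replicate 2), and skeletal muscle markers, 2 of 4, to 95.2 and 341 TPM. Heart markers, 4 of 5, summed to 883 and 672 TPM, with 1 gene higher and 4 lower in replicate 2. Thymus markers, 0 of 3, summed to 8.53 and 23.4 TPM. Endothelial markers, 5 of 5, summed to 609 and 588 TPM, mesothelial markers, 2 of 4, to 69.6 and 91.9 TPM, and cartilage markers, 3 of 5, to 60.0 and 59.2 TPM. The part of these tissues in the elastic fibre levels was not tested.

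The wider set of elastic fibre genes had a median of 21.6 TPM in replicate 1 and 21.04 in replicate 2. Of 63 genes on 11 lists, 41 were at 10 TPM or more in both replicates and 11 at 100 TPM or more. Over all genes coding for protein, 40.3% and 7.06% reached these levels. The counts at 10 TPM given per list below stand beside the same 40.3%. Among the other fibulins, 3 of 5 reached 10 TPM. Fbln1 was highest at 198 TPM (replicate 1) and 179 TPM (replicate 2), followed by Fbln2 at 57.1 and 65.6 TPM. Efemp1 had 18.7 and 21.04 TPM. Fbln7 was lowest at 6.71 and 6.60 TPM. Of the other lysyl oxidases, Loxl2 had 32.6 and 29.4 TPM, Loxl3 had 20.7 and 20.7 TPM, and Loxl4 stayed at 0.56 and 0.79 TPM.

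Among other microfibril and EMILIN family genes, 4 of 6 reached 10 TPM. Mfap3 was highest at 34.7 TPM (replicate 1) and 37.0 TPM (replicate 2), and Mfap5 had 22.0 and 26.1 TPM. Emilin3 had 6.89 and 5.56 TPM, and Emilin2 was lowest at 4.41 and 5.83 TPM. The latent TGF-beta binding proteins, which dock the growth factor on microfibrils, reached 10 TPM together with their ligands in 6 of 7 genes. Ltbp4, whose product also binds fibulin-5, was highest at 89.4 and 106 TPM, and Tgfb1 was lowest at 2.21 and 2.41 TPM. Of the ADAMTS and ADAMTS-like genes, 3 of 8 reached it, led by Adamts10 at 108 and 113 TPM, with Adamtsl3 lowest at 2.00 and 2.05 TPM.

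Genes that prepare the enzymes and hold the fibre to cells were also measured. Of the processing, copper supply and chaperone genes, 6 of 8 reached 10 TPM. Atox1, which carries copper to the pump that loads secreted enzymes, had 487 TPM (replicate 1) and 502 TPM (replicate 2). Tll2 was lowest at 0.02 and 0.03 TPM. All 3 genes of the elastin receptor complex reached 10 TPM, from Ctsa at 130 and 134 TPM to Neu1 at 16.0 and 17.1 TPM. Of the integrins, 4 of 7 did, with Itgb1 highest at 322 and 312 TPM and Itgb3 lowest at 3.76 and 3.88 TPM. All 5 genes for proteoglycans and fibronectin did, from Bgn at 191 and 174 TPM to Vcan at 38.8 and 35.8 TPM.

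Of 7 genes for enzymes that break elastin down, 2 reached 10 TPM, beside the 40.3% of genes coding for protein given above, and their median was 6.60 TPM in replicate 1 and 1.69 in replicate 2. Mmp2 was highest at 176 TPM (replicate 1) and 172 TPM (replicate 2). Mmp7 was lowest by the mean of both replicates, at 0.08 TPM in replicate 1 and was listed at 0 in replicate 2, where 3 counts would give 0.167 TPM. Of the inhibitors, 3 of 4 reached 10 TPM, from Timp3 at 75.9 and 89.2 TPM to Slpi at 1.54 and 2.35 TPM. Of the 57 companion genes averaging 1 TPM or more, 3 (5.26%) differed 1.5-fold or more on the log2(TPM + 1) scale, near the 6.03% of all genes. They are named after their values were seen. Adamtsl5 had 3.39 TPM (replicate 1) and 6.84 TPM (replicate 2), Mmp9 6.60 and 1.69 TPM, and Ctsk 10.6 and 4.68 TPM. Expected counts of Adamtsl5 were 233 in each replicate, although replicate 2 held fewer counts in total. The length used for Adamtsl5 was 2731 nt in replicate 1 and 1938 nt in replicate 2, so its TPM difference rests in part on length. Expected counts of Mmp9 were 503 in replicate 1 and 77 in replicate 2, and those of Ctsk 383 and 120.

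**Figure D5:**
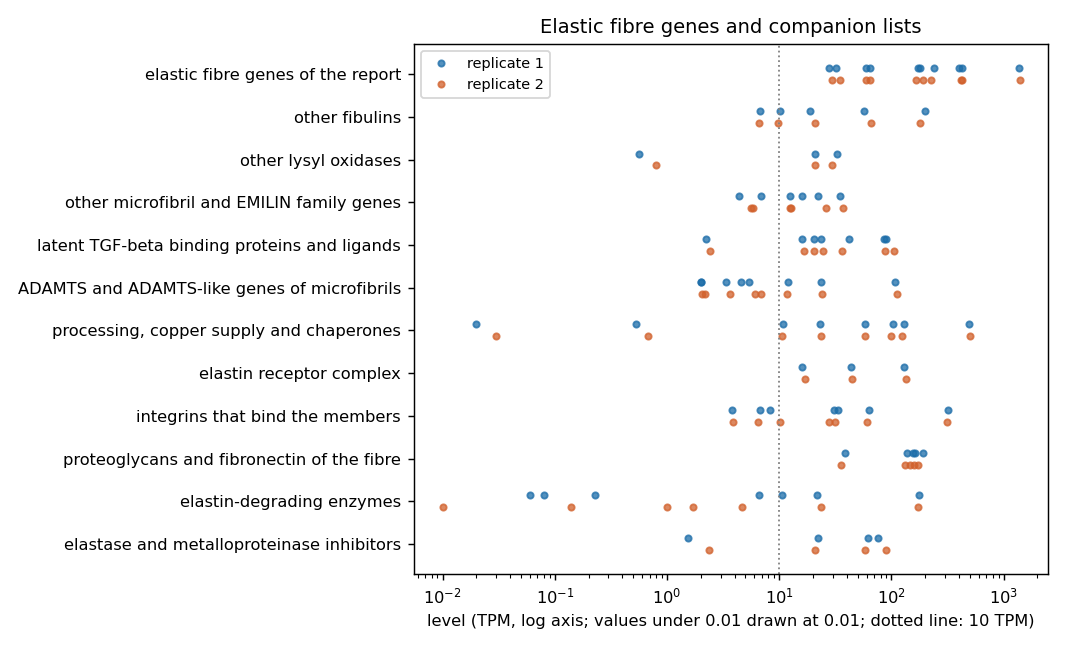
Levels in TPM on a log axis of the 63 companion genes by list, with 1 point per replicate. Atox1 at 487 and 502 TPM is highest, and Mmp7, listed at 0 in replicate 2, is drawn at the lower edge.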

How the data were processed

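Total RNA-seq of embryonic lung was analysed from 2 libraries, made with an Ambion mirVana extraction and 10 ng of RNA longer than 200 nt with spike-ins added, per the labels' protocols, which also link a SMARTer kit manual. Aligner, quantifier and strand setting are not given in the sources used here. Per the submitters' processing notes the build is mm10 and the annotation GENCODE M4. Read numbers are the authors' expected counts, estimated for each gene and each transcript. The TPM the authors deposited are divided by effective length and include the spike-ins, which took 2.30% of expected counts in replicate 1 and 2.32% in replicate 2. The FPKM the authors deposited served as an alternative. The percent values deposited with the transcripts give a transcript's share of its gene's TPM. The score columns the authors deposited are bounds of an interval within the library.

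Symbols came from GENCODE M21 by gene identifier (42462 of 43346 rows matched, all 10 genes among them), promoters from RefSeq (5 of 10 genes matched). Levels, ratios and differences are mean ± SD (n = 2), with no test, since a single group has no contrast. The named genes are the 10, and of each companion list the highest, the lowest, family counterparts and genes of a ratio pair. The members and lists were chosen with earlier results of these data known. Expected counts, rounded to whole numbers, gave TMM factors in edgeR 4.0.16 and size factors in DESeq2 1.42.0 (R 4.3.3) for scaling alternatives only. Other steps used Python 3.11.15, NumPy 2.4.6, pandas 2.3.3, SciPy 1.17.1 and matplotlib 3.10.9. The difference step was tested on simulated data.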

Additional observations from a re-analysis of the deposited data

How the results depend on the processing

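The median level of the 10 genes was 177 TPM as reported. It was 175 TPM without replicate 2 and 179 TPM without replicate 1. It moved beyond the spread between replicates to 211 TPM when TPM was rescaled over genes coding for protein, to 187 TPM from FPKM rescaled over gene rows, and to 131 TPM with the leading transcript of each gene alone, an alternative chosen after seeing the data, in which Efemp2 passes Emilin1 in the order. At a level of 50 TPM 8 genes were counted, and at 200 TPM 4. The log2 ratio of Fbln5 to Efemp2 reversed to 0.59 with expected counts not divided by length. The median difference of the 10 genes between replicates, 0.05, was 0.0468 with TMM, 0.0447 with DESeq2 size factors, 0.0920 with equal spike-in totals, 0.0416 with posterior mean TPM and 0.0537 with a pseudocount of 0.1. Leaving out a replicate leaves no value for the separation of neighbours, the ratios, the differences or the leading transcripts, which need both. No paired analysis was possible because both libraries belong to 1 group. With 2 pools, the SD itself is poorly known, and the deposited intervals lie within a library, so they do not cover the spread between pools. Genes that overlap on the opposite strand could share reads where the library has no strand.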

Other observations

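Opposite-strand neighbours overlap several of the 10 genes. Mapk7 overlaps 89 bases, 5.17%, of Mfap4-202 and had 51.7 TPM in replicate 1 and 49.9 TPM in replicate 2. Mus81 overlaps 173 bases of Efemp2 exons but 0 of its leading transcript, at 38.4 and 43.4 TPM. Gm9913 overlaps 397 bases of Fbn1-201, at 0.29 and 0.19 TPM. Gm26507 overlaps 129 bases of Fbn2-201, at 3.21 and 2.55 TPM. Gm30003 overlaps 152 bases, 3.94%, of Eln-201, and AC161119.1 overlaps 30 bases of Lox-202, but neither has a level in these libraries.

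Beside the windows printed for Mfap2 and Efemp2, RefSeq windows were found for Fbn1, Fbln5 and Emilin1. The window before the start used by Fbn1-201 had a GC content of 52.7%, 8 CpG and 0 GC boxes, and that before Fbln5-201 had 17 CpG and 1 GC box, with a GC content above that of 86.3% of all windows. TATAAA, searched on both strands, was in none of the 9 windows of the 5 genes, against 7.58% of all windows.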
